A study of Mus musculus with 8 samples.

Results

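*Pf4*, *Ppbp* and *Thpo*, the genes of the platelet chemokines PF4 (CXCL4) and PPBP (CXCL7) and of thrombopoietin, were 3 of the 84 cytokine and chemokine genes read on a quantitative PCR array of mouse liver, and were chosen by gene symbol. The study asked how type 1 innate lymphoid cells (ILC1s) bear on ischemia-reperfusion injury (IRI) of fatty liver. The array was run on 8 RNA pools, 1 for each combination of genotype, diet and injury. *Rag1-/-* mice are without T and B cells. Rag1-Tbet DKO mice are in addition without the transcription factor T-bet (*Tbx21*), and with it without the ILC1s that need T-bet. Both genotypes carried the loss of *Rag1*, no wild-type liver was on the array, and both losses affect the whole body. The diets were a normal diet (ND) and a lard-based high-fat diet (HFD). They were left without IRI (non-IRI) or underwent 45 min of partial warm ischemia and 24 h of reperfusion (IRI). The study's *Rag1-/-* and Rag1-Tbet DKO mice were 17 to 19 weeks old in its other experiments, and no age is stated for the livers on the array.

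Each pool held RNA from at least 3 livers, and each gene was read in 1 well per pool. There is therefore no replicate error, no test was run, and every difference given here is a difference between pools. An exact sign-flip test over the 4 matched pairs of pools could not go below a two-sided p of 0.125. Injured livers were sampled in the left lobe and control livers whole, as far as the methods state, so that the part of the liver sampled and the injury cannot be told apart.

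PF4 and PPBP are CXC chemokines that megakaryocytes make and store in the alpha granules of platelets, from which they are released on activation. PPBP is the precursor from which NAP-2, a ligand of the neutrophil receptor CXCR2, is cleaved, whereas PF4 lacks the ELR motif of the CXCR2 ligands and binds heparin and other glycosaminoglycans. Thrombopoietin is made mainly by hepatocytes and acts on megakaryocytes and their progenitors. Platelets carry RNA of their parent cells, so that bulk liver RNA can hold transcripts of the chemokine genes from platelets in its vessels.

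All 3 accessions on the array matched RefSeq genes of the mouse assembly GRCm38.p6. *Ppbp* and *Pf4* are neighbours on chromosome 5, with 2371 bases between them, in the order *Cxcl5*, *Ppbp*, *Pf4*, *Cxcl3*, *Cxcl15*, *Cxcl1*, *Cxcl2*. *Thpo* lies on chromosome 16. The sequences before the start sites of the adjacent pair are shown because these genes moved in the same direction in all 4 injury comparisons. They are the 250 bases before the start, from RefSeq, 5′ to 3′ on the + strand, with matches to TATAAA in capitals. *Pf4* is given for chr5:90772185-90772434 and *Ppbp* for chr5:90768268-90768517.
Pf4: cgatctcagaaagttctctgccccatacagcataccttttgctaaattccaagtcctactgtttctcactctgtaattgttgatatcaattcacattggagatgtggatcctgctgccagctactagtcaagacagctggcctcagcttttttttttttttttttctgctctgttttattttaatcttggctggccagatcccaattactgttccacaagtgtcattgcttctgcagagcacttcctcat
Ppbp: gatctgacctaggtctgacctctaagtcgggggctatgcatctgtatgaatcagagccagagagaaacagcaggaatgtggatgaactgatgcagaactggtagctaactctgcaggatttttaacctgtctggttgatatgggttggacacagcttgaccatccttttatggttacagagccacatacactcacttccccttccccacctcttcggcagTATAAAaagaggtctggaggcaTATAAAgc

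Motifs were searched on both strands in the window from 250 bases before to 50 bases after the start. They were the GATA motif in 4 spellings (AGATAA or with T as its first base, TGATAA, and the forms AGATAG or else TGATAG), the ETS core CCGGAA and, added after the sequences had been read, TATAAA. None of these GATA or ETS spellings lies in the stretches printed above. *Ppbp* holds TATAAA at positions -30 and -8 from the start, and *Pf4* holds none. After the start, *Pf4* has CCGGAA on the - strand at position 15 and AGATAA on the + strand at position 37, shown here in capitals at chr5:90772448-90772477.
Pf4 after the start: tTTCCGGactgggcaggcagtgaAGATAAa
Of 32851 promoter windows of the same length, 29.8% hold 1 of the GATA motifs, 14.9% hold the ETS core and 13.6% hold TATAAA. One of the 2 start sites of *Thpo* has CCGGAA at position -87. A match of letters is a description, and binding was not measured.

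The array gives a threshold cycle (Ct) per well, which is lower the more template a gene has. A level is given as the negative ΔCt, the mean Ct of *Actb* and *Hsp90ab1* minus the Ct of the gene, on a log2 scale on which a step of 1 is about a 2-fold difference. Each assay has its own efficiency, so levels are compared between pools and not between genes. A Ct of 35 was taken as the limit of detection. A pool had between 6 and 17 of its 84 genes there, but none of the 3 genes was at the limit in any pool. Their Ct values were from 22.44 to 26.27 for *Pf4*, from 22.84 to 26.15 for *Ppbp* and from 20.73 to 22.42 for *Thpo*. The mean Ct of *Actb* and *Hsp90ab1* was between 15.04 and 16.46. In place of a replicate error, the standard deviation (SD) of the log2 folds of the 5 housekeeping genes serves as a rough yardstick, and it was between 0.11 and 0.58 over the 12 comparisons. *Actb* and *Hsp90ab1* are among the 5 and are also the reference, so their folds are equal and opposite, which can make the SD smaller. The SD is not the error of a well. The housekeeping genes have lower Ct values than *Pf4* and *Ppbp* and may themselves differ between pools. The pool of ND Rag1-Tbet DKO non-IRI liver stood apart, with a Ct of 9.36 for *Il3* and 11.44 for *Cd40lg*, genes at 35 in at least 5 of the other pools. *Csf2* was at 19.59 in that pool. It was also low, at 19.94, in the ND Rag1-Tbet DKO IRI pool, against 24 to 28.94 in the remaining pools. Means over pairs of pools that rest on the ND Rag1-Tbet DKO non-IRI pool are given with and without it.

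*Pf4* was highest after IRI in Rag1-Tbet DKO liver on either diet. In *Rag1-/-* liver on ND its level was -10.69 without IRI and -9.71 after IRI, and on HFD it was -9.51 and -8.99. In Rag1-Tbet DKO liver on ND it was -8.88 without IRI and -6.49 after IRI, and on HFD it was -9.42 and -6.78. The pools spanned 4.2 on the log2 scale, an 18.4-fold range, from ND *Rag1-/-* non-IRI to ND Rag1-Tbet DKO IRI liver. The injured Rag1-Tbet DKO pools were only 0.29 apart and lay 2.1 above the next pool. Ordered by level, *Pf4* had 2 of 7 gaps wider than the largest housekeeping SD, this one and the gap of 0.98 above the lowest pool. The order of the 5 pools between them is not resolved by that yardstick.

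*Ppbp* was also lowest in ND *Rag1-/-* liver, but its HFD *Rag1-/-* pools stood with the higher ones. Its level in *Rag1-/-* liver was -10.57 without IRI and -9.73 after IRI on ND, against -7.97 and -7.60 on HFD. In Rag1-Tbet DKO liver it was -8.35 without IRI and -7.30 after IRI on ND, against -9.15 and -7.18 on HFD. The range was 3.4 on the log2 scale, or 10.5-fold. *Ppbp* had 3 of 7 gaps wider than the largest housekeeping SD, all among the lower pools, and the 4 highest pools (both Rag1-Tbet DKO IRI and both HFD *Rag1-/-* pools) were separated by gaps of at most 0.38. The narrowest of the 3 gaps, at 0.585, was close to that SD of 0.58.

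*Thpo* varied little against *Actb* and *Hsp90ab1*. Its level in *Rag1-/-* liver was -6.65 without IRI and -6.0 after IRI on ND, and -5.61 and -6.30 on HFD. In Rag1-Tbet DKO liver it was -5.69 and -5.96 on ND, and -6.09 and -6.02 on HFD. The whole range was 1.04 on the log2 scale, or 2.06-fold, and 0 of 7 gaps between neighbouring pools were wider than the largest housekeeping SD.

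**Figure D1:**
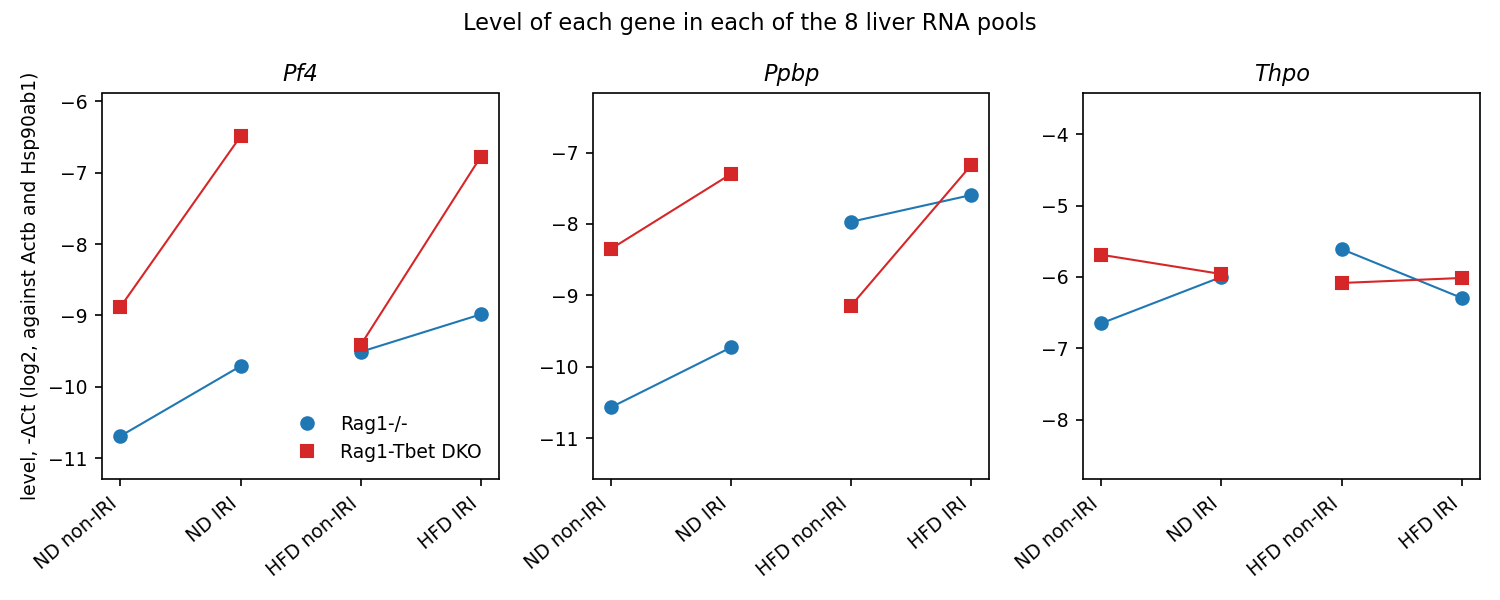
Level of *Pf4*, *Ppbp* and *Thpo* (negative ΔCt, log2) in the 8 pools, 1 point per pool with no error bars since no pool is replicated. Circles are *Rag1-/-* and squares Rag1-Tbet DKO liver, lines join non-IRI to IRI liver of the same diet, and the panels have axes of the same length but different position. The injured Rag1-Tbet DKO pools stand at -6.49 and -6.78 for *Pf4*, while *Thpo* spans 1.04.

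Over all 12 comparisons of pools that differ in 1 factor, *Ppbp* differed by at least 2-fold in 7, *Pf4* in 6 and *Thpo* in 1. Each is set below against the share of array genes that passed the same threshold, which was high in several comparisons.

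After IRI, *Pf4* and *Ppbp* were higher in 4 of 4 comparisons and *Thpo* in 2 of 4. In ND Rag1-Tbet DKO liver *Pf4* was 5.24-fold higher (log2 fold 2.39) and *Ppbp* 2.07-fold higher (1.05), where 50% of the 80 genes measured were at least 2-fold higher and 11.2% lower. *Pf4* ranked 19th and *Ppbp* 40th of these genes by log2 fold, so that *Ppbp* stood in the middle of the array. In HFD Rag1-Tbet DKO liver *Pf4* was 6.23-fold higher (2.64, rank 22 of 77) and *Ppbp* 3.92-fold higher (1.97, rank 34). There 55.8% of the genes were higher and 5.19% lower. The housekeeping SD was 0.38 on ND and 0.17 on HFD.

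In *Rag1-/-* liver none of the 3 genes reached 2-fold after IRI. On ND the log2 folds were 0.98 for *Pf4*, 0.84 for *Ppbp* and 0.65 for *Thpo*, below the array median of 1, with 50.7% of 75 genes higher and 5.33% lower. On HFD they were 0.53, 0.38 and -0.69, with an array median of -0.19, 10.4% of 77 genes higher and 15.6% lower. *Pf4* therefore ranked 40th of 75 on ND but 19th of 77 on HFD, with the smaller fold. The injury fold of *Pf4* was larger in Rag1-Tbet DKO than in *Rag1-/-* liver by 1.41 on ND and by 2.12 on HFD on the log2 scale, and that of *Ppbp* by 0.21 and 1.6. These differences between folds were not tested. *Thpo* in Rag1-Tbet DKO liver was at -0.27 on ND and 0.07 on HFD.

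The mean injury log2 fold over the 4 pairs was 1.63 for *Pf4* (SD 1.04 over conditions, which are not replicates), 1.06 for *Ppbp* (SD 0.67) and -0.06 for *Thpo* (SD 0.56). Without the pair that holds the pool with the low *Il3* and *Cd40lg* Ct values the means were 1.38, 1.06 and 0.01.

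**Figure D2:**
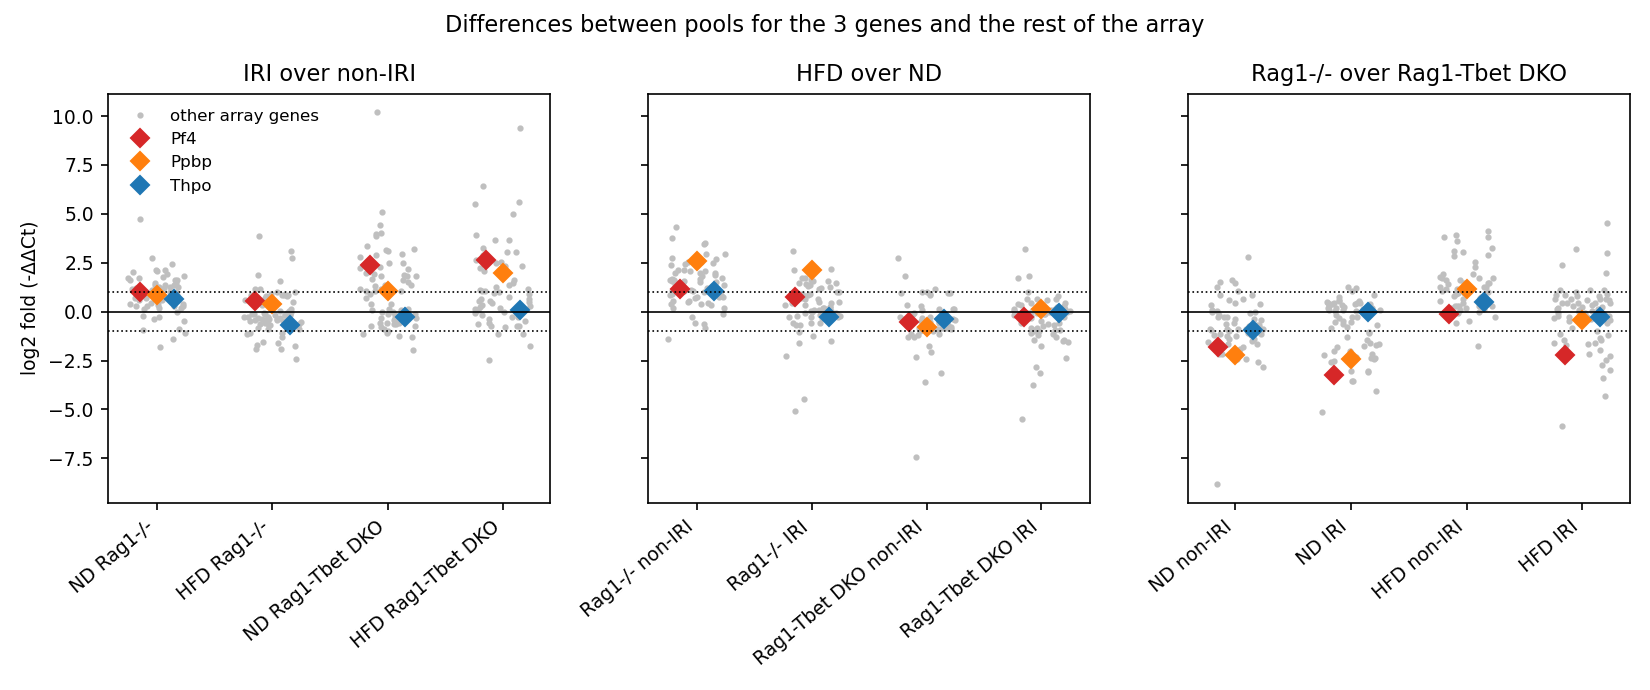
Log2 fold (negative ΔΔCt) of *Pf4*, *Ppbp* and *Thpo* (coloured diamonds) in the 12 comparisons between pools, with the other array genes below Ct 35 in both pools in grey. Dotted lines mark 2-fold. *Pf4* and *Ppbp* lie above 0 in all 4 injury comparisons, among many grey points that lie above the upper line.

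Between genotypes, *Pf4* was lower in *Rag1-/-* than in Rag1-Tbet DKO liver in 4 of 4 comparisons and past 2-fold in 3. It was 9.32-fold lower in *Rag1-/-* liver after IRI on ND (log2 fold -3.22), 4.63-fold lower after IRI on HFD (-2.21) and 3.51-fold lower without IRI on ND (-1.81). Without IRI on HFD the pools differed by -0.1, less than the housekeeping SD of 0.3. That value kept its sign under 4 of 6 other references (-1.585 to 0.09). *Ppbp* was 5.39-fold lower in *Rag1-/-* liver after IRI on ND (-2.43) and 4.66-fold lower without IRI on ND (-2.22). On HFD it was 2.26-fold higher in *Rag1-/-* liver without IRI (1.18) and at -0.42 after IRI. Of the 4 comparisons, *Ppbp* was higher in *Rag1-/-* liver in 1, and that value turned to -0.32 against the median Ct of the array. That reference shifted the fold by -1.49, where the median log2 fold of the array was 1.155.

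The array as a whole leaned the same way in most of these comparisons. On ND without IRI 45.6% of 79 genes were at least 2-fold lower in *Rag1-/-* liver and 8.86% higher, and after IRI 42.5% of 80 were lower and 8.75% higher. On HFD without IRI 1.3% of 77 were lower and 54.5% higher, and after IRI 30.8% of 78 were lower and 11.5% higher. *Pf4* ranked 71st of 80 after IRI on ND and 69th of 78 after IRI on HFD, counted from the gene highest in *Rag1-/-* liver. It ranked 72nd of 77 in the HFD non-IRI pools, where its own value was near 0. *Thpo* was at -0.96, -0.04, 0.48 and -0.28 in the order given here, below 2-fold in 4 of 4.

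The mean genotype log2 fold was -1.83 for *Pf4*, -0.97 for *Ppbp* and -0.2 for *Thpo*. Without the ND non-IRI pair, which holds the pool that stood apart, it was -1.84, -0.56 and 0.05. It was -1.37, -0.49 and -0.255 without the ND IRI pair, which holds the injured pool with a low *Csf2* Ct.

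Between diets, the values of *Ppbp* were large in *Rag1-/-* liver. It was 6.06-fold higher on HFD without IRI (log2 fold 2.6) and 4.39-fold higher after IRI (2.14). In the first comparison 71.4% of 77 genes were higher and 1.3% lower, and *Ppbp* ranked 14th. In the second, 28.6% were higher and 11.7% lower, and it ranked 7th. In Rag1-Tbet DKO liver *Ppbp* was at -0.8 without IRI and 0.13 after IRI.

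*Pf4* on HFD was 2.27-fold higher in *Rag1-/-* liver without IRI (1.18, rank 49 of 77, below the array median of 1.5) and at 0.73 after IRI. In Rag1-Tbet DKO liver it was at -0.54 and -0.29. *Thpo* was 2.06-fold higher in *Rag1-/-* non-IRI liver (1.04, rank 54 of 77), its only comparison past 2-fold. Its other diet values were -0.3 (*Rag1-/-* IRI), -0.4 (Rag1-Tbet DKO non-IRI) and -0.06 (Rag1-Tbet DKO IRI). In Rag1-Tbet DKO liver 6.33% of 79 genes were higher and 29.1% lower without IRI, and 8.75% of 80 were higher and 22.5% lower after IRI. The mean diet log2 fold was 0.27 for *Pf4*, 1.02 for *Ppbp* and 0.07 for *Thpo*, and 0.54, 1.62 and 0.23 without the Rag1-Tbet DKO non-IRI pair. Without the *Rag1-/-* non-IRI pair it was -0.03, 0.49 and -0.25, so that the sign turned for *Pf4* and *Thpo*. Under 6 other references the *Rag1-/-* non-IRI values stayed past 2-fold under 2 for *Pf4* (-0.74 to 1.26) and under 1 for *Thpo* (-0.88 to 1.12).

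The level of a single gene moves with the reference genes, but the difference between 2 genes of the same pool does not. These differences were computed after the data had been seen. Relative to *Thpo*, *Pf4* was higher after IRI in 4 of 4 comparisons, by 0.33 to 2.66 on the log2 scale with a mean of 1.69, or 1.37 without the pair that holds the pool that stood apart. *Ppbp* was higher relative to *Thpo* in 4 of 4, by 0.19 to 1.9, and *Pf4* relative to *Ppbp* in 4 of 4, by 0.14 to 1.34. Relative to *Thpo*, *Pf4* was lower in *Rag1-/-* than in Rag1-Tbet DKO liver in 4 of 4 comparisons, by -3.18 to -0.57. *Ppbp* relative to *Thpo* was lower in *Rag1-/-* liver in 3 of 4 (-2.39 to 0.7). The ratios show unequal change of the genes and not which of them changed.

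With 6 other references, *Pf4* stayed at least 2-fold higher after IRI in Rag1-Tbet DKO liver under 6 of 6, with log2 folds of 1.04 to 2.65 on ND and 1.33 to 2.82 on HFD. *Pf4* also stayed at least 2-fold lower in *Rag1-/-* than in Rag1-Tbet DKO liver after IRI under 6 of 6 (-3.47 to -2.44 on ND, -2.43 to -1.99 on HFD). The same held for *Ppbp* between genotypes after IRI on ND (-2.68 to -1.65) and between diets in *Rag1-/-* IRI liver (1.69 to 2.2). The injury fold of *Ppbp* in HFD Rag1-Tbet DKO liver stayed past 2-fold under 5 of 6 (0.66 to 2.15). In ND Rag1-Tbet DKO liver it did so under 3 of 6, and it was at -0.3 with *Nodal*, *Il9* and *Csf1*, the references the methods name for that genotype. In *Rag1-/-* liver the injury folds of *Pf4* and *Ppbp* were below 0 with these 3 references on both diets, and with the array median on ND.

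**Figure D3:**
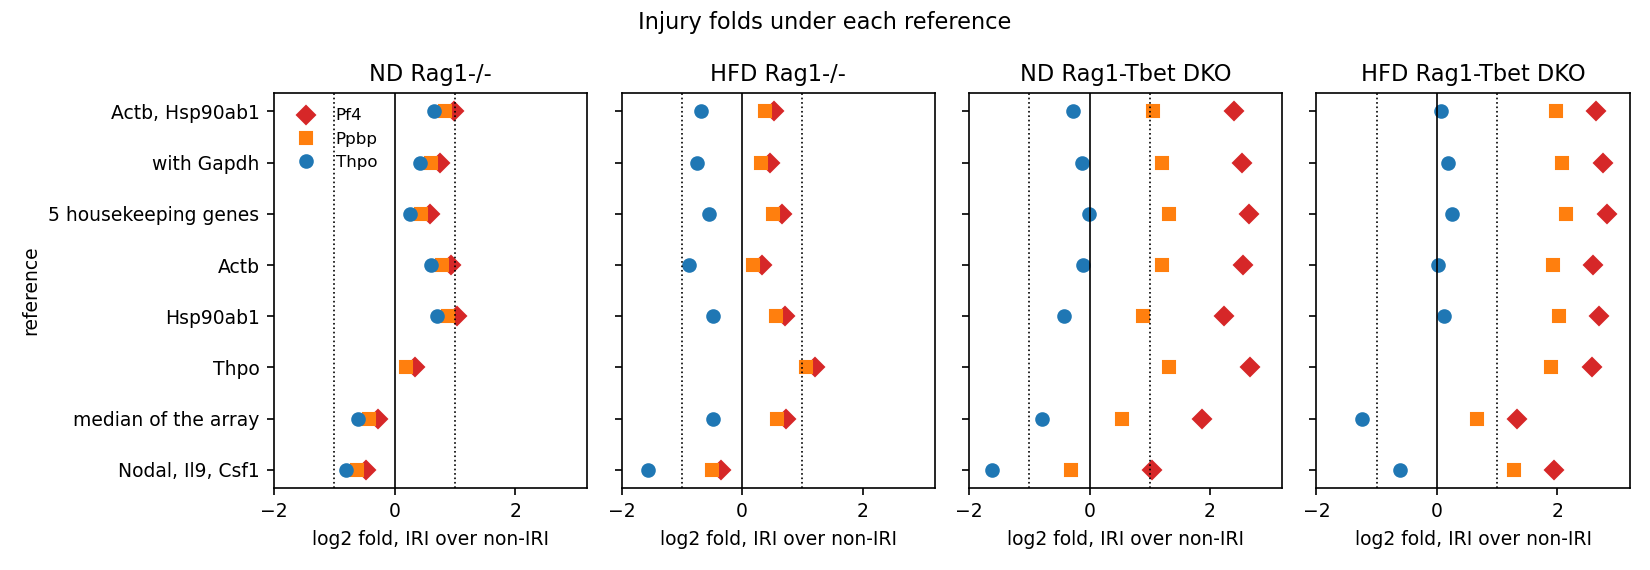
Injury log2 fold (IRI over non-IRI) of *Pf4*, *Ppbp* and *Thpo* in each diet and genotype under 8 references, 1 point per gene and reference, with dotted lines at 2-fold. A reference shifts all genes of a panel together. *Pf4* in Rag1-Tbet DKO liver stays above 1 throughout, with a lowest value of 1.04, and *Ppbp* in ND Rag1-Tbet DKO liver goes down to -0.3.

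The neighbouring chemokine genes *Cxcl1*, *Cxcl3* and *Cxcl5* encode CXCR2 ligands that attract neutrophils. After IRI, 3 of 3 were at least 2-fold higher in Rag1-Tbet DKO liver on either diet. In *Rag1-/-* liver it was 2 of the 2 measured on ND and 1 of 3 on HFD. The shares of array genes higher were 50% (ND) and 55.8% (HFD) in Rag1-Tbet DKO and 50.7% and 10.4% in *Rag1-/-* liver. *Cxcl3*, the next gene to *Pf4*, had log2 folds of 10.2 on ND and 9.41 on HFD in Rag1-Tbet DKO liver and of 3.87 in HFD *Rag1-/-* liver, and it was at the limit in both ND *Rag1-/-* pools. *Cxcl5*, on the other side of *Ppbp*, was at 5.1 and 5.01 in Rag1-Tbet DKO and at 1.14 and 0.33 in *Rag1-/-* liver. *Cxcl1* was at 1.82 and 2.08 in Rag1-Tbet DKO and at 2.14 and 0.71 in *Rag1-/-* liver. In both Rag1-Tbet DKO comparisons *Pf4* lay below *Cxcl3* and *Cxcl5* and above *Cxcl1*, and *Ppbp* lay below all 3. The list's median in Rag1-Tbet DKO liver was 5.1 on ND and 5.01 on HFD, beside array medians of 0.98 and 1.18.

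**Figure D4:**
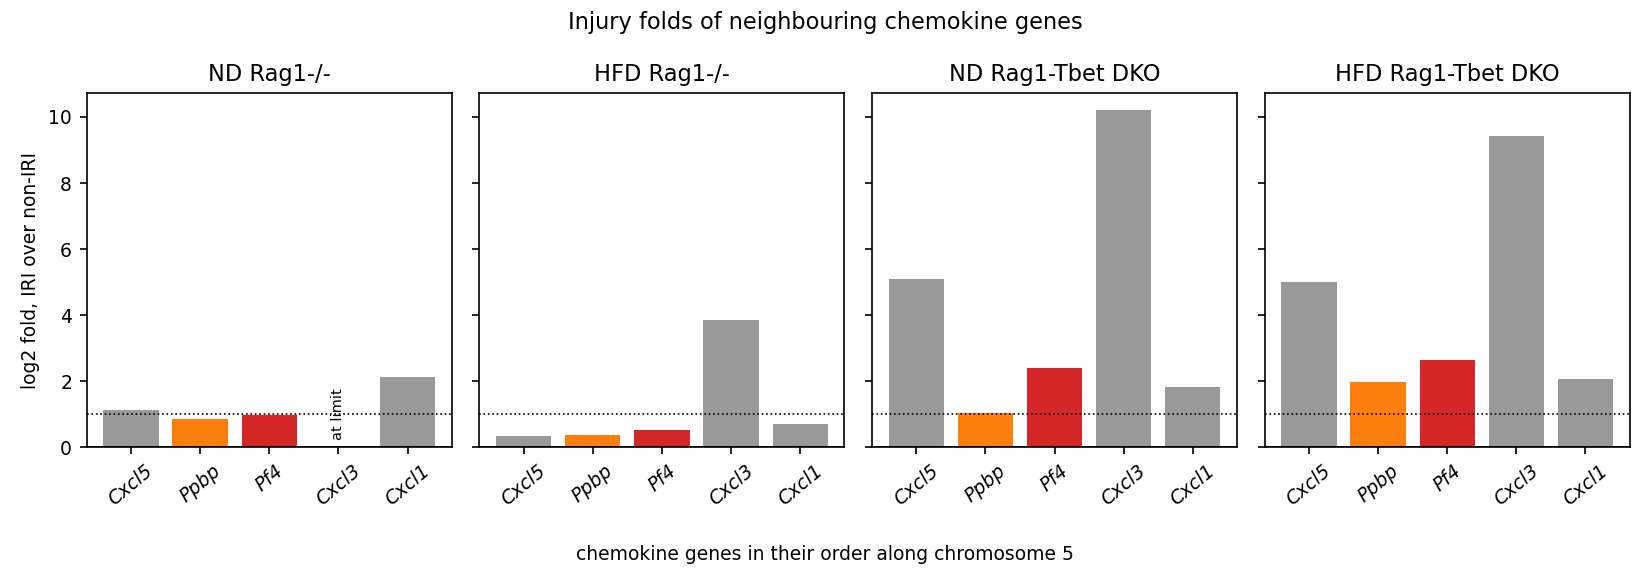
Injury log2 fold (IRI over non-IRI, *Actb* and *Hsp90ab1* as references) of the 5 chemokine genes of the chromosome 5 cluster that are on the array, in their order along the chromosome, 1 bar per pair of pools. The dotted line marks 2-fold, and *Cxcl3* in ND *Rag1-/-* liver was at the limit in both pools. *Cxcl3* reaches 10.2 in ND Rag1-Tbet DKO liver, where *Pf4* is at 2.39 and *Ppbp* at 1.05.

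Of the other proteins that platelets carry or release (*Ccl5*, *Cxcl5*, *Cd40lg*, *Vegfa*), 3 of 4 were higher after IRI in ND *Rag1-/-* liver, 0 of the 3 measured in HFD *Rag1-/-*, 1 of 4 in ND Rag1-Tbet DKO and 2 of 4 in HFD Rag1-Tbet DKO liver. *Ccl5*, the gene of RANTES, was at 0.72, -1.09, -0.02 and 0.88 in that order, and was lower by at least 2-fold in HFD *Rag1-/-* liver. *Vegfa*, an angiogenic factor, was at 1, -0.05, -0.04 and 0.35, so that its call in ND *Rag1-/-* liver was just at the threshold. *Cxcl5* is described above. *Cd40lg* had log2 folds of at least 3.86 in ND *Rag1-/-* and at least 3.2 in HFD Rag1-Tbet DKO liver, with Ct values after IRI of 31.37 and 31.96. It was at the limit in both HFD *Rag1-/-* pools and was called lower in ND Rag1-Tbet DKO liver through the pool that stood apart. The median of the list was 1.07 in ND *Rag1-/-*, -0.05 in HFD *Rag1-/-*, -0.03 in ND Rag1-Tbet DKO and 2.04 in HFD Rag1-Tbet DKO liver, beside array medians of 1, -0.19, 0.98 and 1.18. The shares of array genes higher were 50.7%, 10.4%, 50% and 55.8%.

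Cytokines other than thrombopoietin that act on megakaryocytes or their progenitors (*Il3*, *Il6*, *Il11*, *Lif*, *Cxcl12*) were higher after IRI for 3 of the 4 measured in HFD Rag1-Tbet DKO liver and for 2 of 5 in ND Rag1-Tbet DKO liver, where 1 of 5 was lower. Over the array 55.8% and 50% of genes were higher in these comparisons, and 5.19% and 11.2% were lower. The lower gene was *Il3*, whose fold rests on the pool that stood apart. In *Rag1-/-* liver 1 of 4 was higher on either diet, beside 50.7% of the array on ND and 10.4% on HFD. On ND 1 of 4 was lower, beside 5.33% of the array. *Il11* was at 4.04 in ND and at least 7.15 in HFD Rag1-Tbet DKO liver, against 0.2 in ND and 1.58 in HFD *Rag1-/-* liver. *Lif* was at 2.47 and 2.58 in Rag1-Tbet DKO liver, against -1.38 and -0.17 in *Rag1-/-* liver.

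The array holds none of the surface genes that define platelets or megakaryocytes. In bulk RNA, fewer cells of a type and less RNA per cell cannot be told apart. Of the cytokines of monocytes, macrophages and neutrophils (*Il1a*, *Il1b*, *Tnf*, *Ccl3*, *Ccl4*), 4 of 5 were higher after IRI in both Rag1-Tbet DKO comparisons, 2 of 5 in ND *Rag1-/-* and 0 of 5 in HFD *Rag1-/-* liver. The shares of array genes higher were 50% (ND) and 55.8% (HFD) in Rag1-Tbet DKO and 50.7% and 10.4% in *Rag1-/-* liver. *Ccl3*, *Ccl4* and *Tnf* had log2 folds above 0 in 4 of 4 comparisons, as *Pf4* did, whereas *Il1a* was at -0.74 in ND and -0.25 in HFD Rag1-Tbet DKO liver and *Il1b* at -0.93 in ND and -0.34 in HFD *Rag1-/-* liver. The part of these cells in the *Pf4* values was not tested. The hepatocyte gene *Hc*, complement C5, was at 1.19 in ND *Rag1-/-*, -0.2 in HFD *Rag1-/-*, -0.28 in ND Rag1-Tbet DKO and 0.65 in HFD Rag1-Tbet DKO liver. The sinusoidal and stromal genes *Bmp2*, *Bmp4*, *Bmp6* and *Cxcl12* were lower for 3 of 4 in ND Rag1-Tbet DKO liver. The share of array genes lower there was 11.2%. This count rests on the pool that stood apart, and *Bmp4* was just at the threshold with a log2 fold of -1. On HFD 0 of 4 were lower in that genotype, beside 5.19% of the array. For *Rag1-/-* liver 1 of 4 was lower on HFD, beside 15.6% of the array, and 1 of 4 was higher on ND, beside 50.7%. *Mstn*, a muscle gene, had log2 folds of 3.13 in ND and at least 2.28 in HFD Rag1-Tbet DKO liver, with Ct values of 30.84 or more, and was at the limit in the *Rag1-/-* pools. The T cell cytokine gene *Il2* was at 2.88 in ND and at least 4.35 in HFD Rag1-Tbet DKO liver. It was at least 2.9 in ND and 0.84 in HFD *Rag1-/-* liver. Its Ct values were 30.81 or more, and both genotypes are without T cells. *Adipoq*, a gene of fat tissue, was at -1.28 in ND Rag1-Tbet DKO liver and at the limit in 1 or both pools of the other comparisons. The part of these tissues in the *Pf4* values was not tested.

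Across the 8 pools, scaled to the pool median of the genes below the limit in every pool, the patterns most like *Pf4* among 61 genes were those of *Spp1*, the gene of osteopontin (Pearson r 0.88, or 0.92 on the *Actb* and *Hsp90ab1* scale), *Ccl3* (0.81 and 0.88) and *Cxcl5* (0.75 and 0.85). *Ppbp* came 5th (0.67 and 0.83). For *Ppbp* they were *Il1rn*, which encodes the antagonist of the IL-1 receptor (0.85 and 0.96), *Ltb* (0.77 and 0.93) and *Spp1* (0.75 and 0.92). For *Thpo* they were *Bmp2* (0.97 and 0.59), *Tnfrsf11b* (0.97 and 0.9) and *Bmp4* (0.95 and 0.64). *Thpo* against *Pf4* gave -0.31 on the first scale and 0.33 on the second, so that its sign turned with the scale. All genes of a pool share its RNA and its reference, and these coefficients over 8 pools are descriptions.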

How the data were processed

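Bulk liver RNA of 8 conditions was read on a PCR array that carried 5 housekeeping genes beside 84 genes of cytokines and chemokines. For each condition the authors combined RNA of at least 3 livers, used 1.25 µg of it for cDNA and ran 40 cycles. They deposited Ct values, with a highest value of 35, and normalized values, a ratio (2 to the power of -ΔCt). A deposited table of the authors' own folds was not used. Wells were matched between the tables by their identifier. For the 3 genes, the deposited ratios implied reference Ct values of 15.1 to 15.7 in *Rag1-/-* but of 26.9 to 27.6 in Rag1-Tbet DKO pools, so they were used only within a genotype. Levels, folds and calls (at least 2-fold, with bounds at a Ct of 35) were computed from the Ct values with pandas 2.3.3 and numpy 2.4.6 under Python 3.11.15, plotted with matplotlib 3.10.9, and tested on simulated data. No depth beyond the Ct can be given. The named genes are the 3 genes, the lists above, the cell type markers and the 3 genes most like each. Members and lists were chosen with earlier results of these data known. Alternatives were other references, a Ct limit of 32, the deposited ratios, a 3-fold threshold, leaving out each pair and, added after the data were seen, *Thpo* as reference.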

Additional observations from a re-analysis of the deposited data

Results flagged for a closer look

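The diet values of *Pf4* had opposite signs in the genotypes, as did the medians of the array. The log2 folds of HFD over ND were 1.18 and 0.73 in *Rag1-/-* liver (non-IRI and IRI) and -0.54 and -0.29 in Rag1-Tbet DKO liver, a difference of 1.36 between the genotype means, and of 1.01 between the IRI values alone, which leave out the pool with the low *Il3* and *Cd40lg* Ct values. The array medians were 1.5 and 0.445 in *Rag1-/-* and -0.515 and -0.08 in Rag1-Tbet DKO liver (non-IRI and IRI). Both *Pf4* values of a genotype had the same sign, but the difference between genotypes was not tested, since no pool is replicated. Against the median Ct of the array the non-IRI values turned, to -0.74 in *Rag1-/-* and 0.56 in Rag1-Tbet DKO liver. That reference shifted them by -1.92 and 1.095, more in size than the median folds of 1.5 and -0.515. The Rag1-Tbet DKO IRI value of -0.29 was smaller in size than its housekeeping SD of 0.34. It came to 0.015 against the median Ct of the array.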

How the results depend on the processing

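A change of reference shifts all genes of a comparison alike. That shift was between -0.25 and 0.25 with *Actb* or *Hsp90ab1* alone, between -0.52 and 0.62 with all housekeeping genes, between -1.46 and 0.66 with *Nodal*, *Il9* and *Csf1*, and between -1.92 and 1.53 with the array median, which removes by construction what most genes share. The Ct limit of 32 and the 3-fold threshold cannot move a log2 fold. Over the other alternatives, 162 of the log2 folds of single comparisons kept their side of the 2-fold threshold and moved by less than the housekeeping SD. A further 69 moved by more, which includes values below 2-fold that passed it in the opposite direction. Of the rest, 18 lost the call, 10 gained it in the same direction and 5 turned in sign after a call. Of the counts of array genes, 146 stayed within 1.5 times and 62 did not. Values or calls that changed are given here, as log2 folds in the directions of the report (DKO stands for Rag1-Tbet DKO), and their causes were not tested. Array counts are numbers of genes at least 2-fold higher or lower ("2 lower" means that 2 genes were lower). With *Gapdh* added to the references, *Pf4* was at 0.97 for diet in Rag1-/- non-IRI. *Ppbp* was at a mean of 0.93 over the 4 diet pairs. *Thpo* was at 0.83 for diet in Rag1-/- non-IRI. The array counts then became 2 lower for diet in Rag1-/- non-IRI. Against all 5 housekeeping genes, *Pf4* was at 0.58 after injury in ND Rag1-/- and 2.82 in HFD DKO, 0.66 for diet in Rag1-/- non-IRI, -1.19 between genotypes in ND non-IRI. *Ppbp* was at 0.44 after injury in ND Rag1-/- and 2.15 in HFD DKO, 2.08 for diet in Rag1-/- non-IRI, a mean of 0.95 over the 4 diet pairs, -1.60 between genotypes in ND non-IRI. *Thpo* was at 0.25 after injury in ND Rag1-/- and 0.25 in HFD DKO, 0.52 for diet in Rag1-/- non-IRI, -0.34 between genotypes in ND non-IRI. This gave array counts of 23 higher after injury in ND Rag1-/-, 11 higher for diet in DKO non-IRI, 13 higher between genotypes in ND non-IRI, 5 lower after injury in ND DKO and 2 in HFD DKO, 4 lower for diet in Rag1-/- non-IRI. With *Actb* alone, *Pf4* was at -2.43 between genotypes in HFD IRI. *Ppbp* was at -0.64 between genotypes in HFD IRI, a mean of -1.12 over the 4 genotype pairs. *Thpo* was at -1.0 between genotypes in ND non-IRI and -0.50 in HFD IRI. Here the array counts were 5 higher after injury in HFD Rag1-/-, 10 higher for diet in DKO non-IRI, 4 higher between genotypes in ND IRI. With *Hsp90ab1* alone, *Pf4* was at 1.03 after injury in ND Rag1-/-, -1.99 between genotypes in HFD IRI. *Ppbp* was at 0.89 after injury in ND DKO, -0.20 between genotypes in HFD IRI. *Thpo* was at 0.96 for diet in Rag1-/- non-IRI, -0.06 between genotypes in HFD IRI. Array counts were then 16 higher after injury in HFD Rag1-/-, 15 higher between genotypes in HFD IRI. Against *Nodal*, *Il9* and *Csf1*, *Pf4* was at -0.48 after injury in ND Rag1-/-, -0.36 in HFD Rag1-/-, 1.04 in ND DKO and 1.95 in HFD DKO, a mean of 0.54 over the 4 injury pairs, 0.26 for diet in Rag1-/- non-IRI, 0.39 in Rag1-/- IRI and -0.98 in DKO non-IRI, -1.15 between genotypes in ND non-IRI and -2.66 in ND IRI. *Ppbp* was at -0.62 after injury in ND Rag1-/-, -0.51 in HFD Rag1-/-, -0.30 in ND DKO and 1.28 in HFD DKO, a mean of -0.037 over the 4 injury pairs, 1.68 for diet in Rag1-/- non-IRI, 1.80 in Rag1-/- IRI and -1.24 in DKO non-IRI, a mean of 0.65 over the 4 diet pairs, -1.56 between genotypes in ND non-IRI and -1.87 in ND IRI. *Thpo* was at -0.81 after injury in ND Rag1-/-, -1.57 in HFD Rag1-/-, -1.62 in ND DKO and -0.62 in HFD DKO, a mean of -1.16 over the 4 injury pairs, 0.12 for diet in Rag1-/- non-IRI, -0.63 in Rag1-/- IRI and -0.84 in DKO non-IRI, -0.30 between genotypes in ND non-IRI and 0.52 in ND IRI. Over the array there were 8 higher after injury in ND Rag1-/-, 3 in HFD Rag1-/- and 19 in ND DKO, 26 higher for diet in Rag1-/- non-IRI and 3 in DKO non-IRI, 13 higher between genotypes in ND non-IRI and 16 in ND IRI, 22 lower after injury in ND Rag1-/-, 45 in HFD Rag1-/-, 36 in ND DKO and 12 in HFD DKO, 6 lower for diet in Rag1-/- non-IRI and 37 in DKO non-IRI, 22 lower between genotypes in ND non-IRI. Against the median of the array, *Pf4* was at -0.28 after injury in ND Rag1-/-, 1.88 in ND DKO and 1.33 in HFD DKO, a mean of 0.92 over the 4 injury pairs, -0.74 for diet in Rag1-/- non-IRI, 0.28 in Rag1-/- IRI and 0.56 in DKO non-IRI, -0.28 between genotypes in ND non-IRI, -2.44 in ND IRI and -1.58 in HFD non-IRI. *Ppbp* was at -0.42 after injury in ND Rag1-/-, 0.54 in ND DKO and 0.66 in HFD DKO, a mean of 0.34 over the 4 injury pairs, 0.68 for diet in Rag1-/- non-IRI, 1.69 in Rag1-/- IRI and 0.30 in DKO non-IRI, a mean of 0.77 over the 4 diet pairs, -0.69 between genotypes in ND non-IRI, -1.65 in ND IRI and -0.32 in HFD non-IRI. *Thpo* was at -0.61 after injury in ND Rag1-/-, -0.79 in ND DKO and -1.24 in HFD DKO, a mean of -0.78 over the 4 injury pairs, -0.88 for diet in Rag1-/- non-IRI, -0.74 in Rag1-/- IRI and 0.70 in DKO non-IRI, 0.56 between genotypes in ND non-IRI, 0.74 in ND IRI and -1.01 in HFD non-IRI. Genes of the array numbered 9 higher after injury in ND Rag1-/-, 16 in HFD Rag1-/- and 28 in HFD DKO, 11 higher for diet in Rag1-/- non-IRI and 18 in DKO non-IRI, 26 higher between genotypes in ND non-IRI, 24 in ND IRI and 18 in HFD non-IRI, 14 lower after injury in ND Rag1-/-, 18 in ND DKO and 24 in HFD DKO, 22 lower for diet in Rag1-/- non-IRI, 14 in Rag1-/- IRI and 13 in DKO non-IRI, 10 lower between genotypes in ND non-IRI and 25 in HFD non-IRI. At a Ct limit of 32, counts of array genes became 4 higher for diet in DKO IRI, 4 higher between genotypes in ND IRI, 0 lower for diet in Rag1-/- non-IRI. From the deposited normalized values, *Pf4* was at 1.11 after injury in ND DKO and 1.76 in HFD DKO, 0.96 for diet in Rag1-/- non-IRI. *Ppbp* was at -0.24 after injury in ND DKO and 1.09 in HFD DKO, a mean of 0.44 over the 4 injury pairs. *Thpo* was at -1.55 after injury in ND DKO and -0.81 in HFD DKO, a mean of -0.67 over the 4 injury pairs, 0.82 for diet in Rag1-/- non-IRI. The counts over the array were 19 higher after injury in ND DKO, 35 lower after injury in ND DKO and 15 in HFD DKO, 2 lower for diet in Rag1-/- non-IRI. Against *Thpo*, *Pf4* was at 0.33 after injury in ND Rag1-/- and 1.21 in HFD Rag1-/-, 0.14 for diet in Rag1-/- non-IRI, 1.02 in Rag1-/- IRI and -0.14 in DKO non-IRI, -0.85 between genotypes in ND non-IRI, -0.57 in HFD non-IRI and -1.93 in HFD IRI. *Ppbp* was at 0.19 after injury in ND Rag1-/- and 1.06 in HFD Rag1-/-, 1.56 for diet in Rag1-/- non-IRI, 2.43 in Rag1-/- IRI and -0.40 in DKO non-IRI, a mean of 0.94 over the 4 diet pairs, -1.26 between genotypes in ND non-IRI, 0.70 in HFD non-IRI and -0.14 in HFD IRI. A 3-fold threshold left the log2 folds as they were but took away some calls. *Pf4* lost its call at 1.18 for diet in Rag1-/- non-IRI. *Ppbp* lost those at 1.05 after injury in ND DKO and at 1.18 between genotypes in HFD non-IRI. *Thpo* lost its call at 1.04 for diet in Rag1-/- non-IRI. At this setting, array genes numbered 21 higher after injury in ND Rag1-/- and 4 in HFD Rag1-/-, 34 higher for diet in Rag1-/- non-IRI, 14 in Rag1-/- IRI and 3 in DKO non-IRI, 3 higher between genotypes in ND non-IRI and 4 in ND IRI, 2 lower after injury in ND Rag1-/-, 6 in HFD Rag1-/-, 4 in ND DKO and 2 in HFD DKO, 0 lower for diet in Rag1-/- non-IRI and 9 in DKO IRI. Without the HFD DKO pair the mean injury log2 fold of *Ppbp* was 0.76. Its mean diet value was 0.49 without the *Rag1-/-* non-IRI pair and 0.64 without the *Rag1-/-* IRI pair. Its mean genotype value was -1.69 without the HFD non-IRI pair, -1.16 without the HFD IRI pair and -0.49 without the ND IRI pair. Leaving out each pair in turn gave mean injury values of 1.3 to 2.0 for *Pf4*, 0.76 to 1.29 for *Ppbp* and -0.3 to 0.15 for *Thpo*, mean diet values of -0.03 to 0.54, 0.49 to 1.62 and -0.25 to 0.23, and mean genotype values of -2.41 to -1.37, -1.69 to -0.49 and -0.43 to 0.05. No paired analysis was possible because the groups share fewer than 2 replicate numbers. The 4 matched pairs per factor are different conditions, and they are described above without a test. With 1 well per gene, the depth of these data cannot separate a small difference between pools from the error of a well.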
